A study of Mus musculus with 4 samples.

Results

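The genes described here are 10 genes of the mouse antioxidant and metal-binding response: Gclc, Gclm, Slc7a11, Gsr, Txnrd1, Srxn1, Nqo1, Hmox1, Mt1 and Mt2. They were chosen by name as targets of the transcription factor Nrf2 and as the main metallothioneins, by a rule that used no measured value, although earlier results of these data were known when they were chosen. They are 10 of 20284 genes matched on the array by RefSeq accession, and 12 probes carried them, with 2 probes each for Hmox1 and Gsr and 1 for each of the other genes. The RNA came from spleens of ICR mice, which are outbred, at 5 days of age. Carbon black nanoparticles (CB-NP), ultrafine particles of nearly pure carbon, were instilled intranasally into the pregnant dams at a dose of 95 microg/kg on gestational day 5 and again on day 9, and control dams were given distilled water at 1 mL/kg. Total RNA was combined by sex and treatment into 4 pools, control and CB-NP of each sex, with 1 array per pool. The numbers of animals and litters in a pool are not given in the labels, and no pool was repeated, so a difference within a sex has no replicate check.

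Nrf2 is a transcription factor that is held in the cytoplasm by Keap1 and degraded. Oxidants and electrophiles modify Keap1, and Nrf2 then enters the nucleus, pairs with small Maf proteins and binds antioxidant response elements (AREs) of genes for glutathione synthesis, thioredoxin reduction and quinone and haem breakdown. Metallothioneins are small cysteine-rich proteins that bind zinc and copper, and zinc induces them through the factor Mtf1 and metal response elements (MREs). In the spleen, red pulp macrophages break down the haem of old red cells with Hmox1, and the neonatal mouse spleen also makes red cells.

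Of the 9 genes well above background on all 4 arrays, 8 were lower in the CB-NP pool of both sexes, by small amounts, and Hmox1 was equal in the males and lower in the females. None of the 9 passed the test over both sexes. The remaining gene, Slc7a11, was well above background in the female CB-NP pool only. Levels below are multiples of the 75th percentile of an array's spots, and differences are CB-NP minus control on the log2 scale. The scanner error of such a difference was 0.20 for each of the 9 genes, and it covers the reading of the spots, not the spread between pools.

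**Figure D1:**
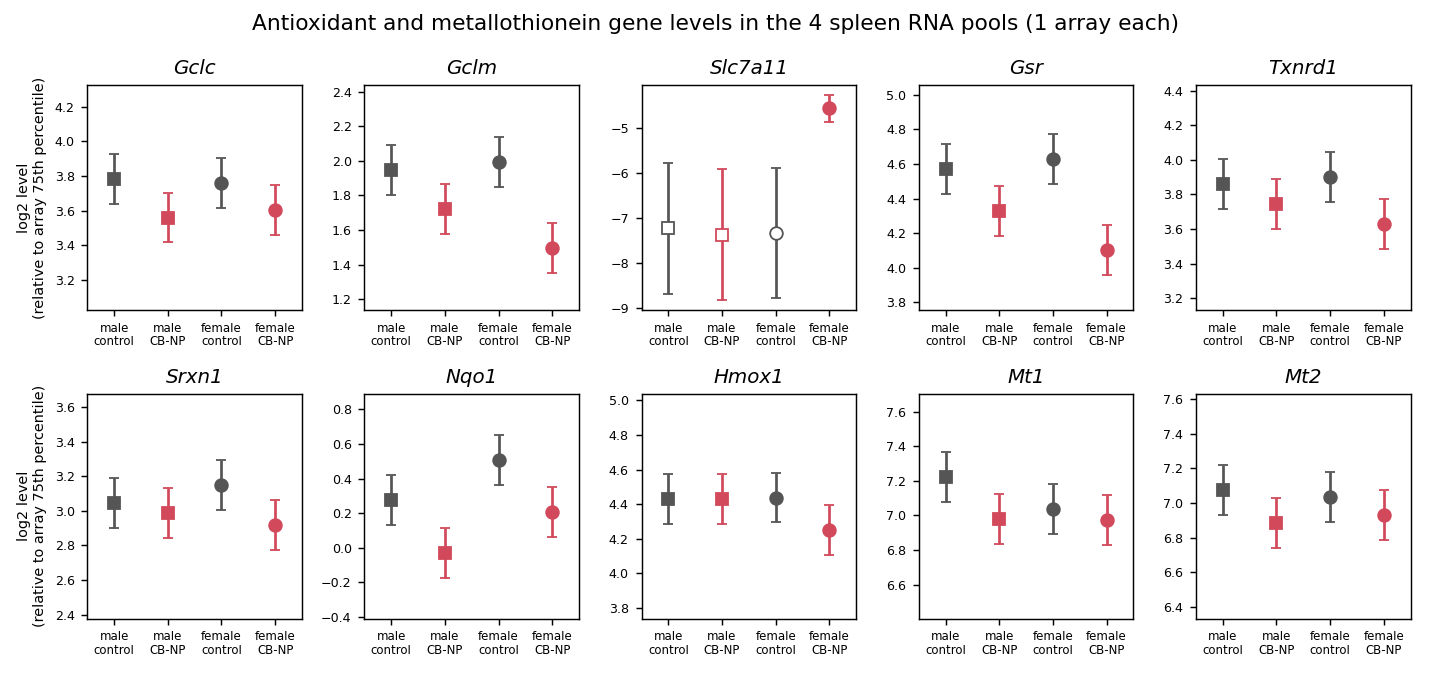
Log2 level relative to the array's 75th percentile (y axis) of the 10 genes in the 4 pools (x axis), 1 array per point; squares are males, circles females, grey control and red CB-NP, bars are the scanner error, and open points were not well above background. The y axes span the same number of log2 units except that of Slc7a11. The red points of Gclm and Gsr lie below both grey points, and Slc7a11 is well above background in the female CB-NP pool alone.

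Among the genes of glutathione synthesis and recycling, Gclm and Gsr had the lowest female differences of the 9. Gclc, the catalytic subunit of glutamate-cysteine ligase (chromosome 9), the rate-limiting enzyme of glutathione synthesis, was at 13.8 in control and 11.8 in CB-NP males, and at 13.5 and 12.1 in the females. Both CB-NP pools lay below both control pools, with differences of -0.22 in males and -0.16 in females. Gclm, the modifier subunit of the same enzyme (chromosome 3), was at 3.85 and 3.29 in the male pools and at 3.98 and 2.82 in the female pools, control first. Its CB-NP pools also lay below both controls, with differences of -0.23 in males and -0.50 in females. Gsr, glutathione reductase (chromosome 8), which returns oxidised glutathione to its reduced form, was at 23.7 and 20.1 in the males and at 24.7 and 17.2 in the females by its brighter probe. The differences of -0.24 and -0.53 again put both CB-NP pools lowest. Its dimmer probe ran the same way with smaller differences, -0.09 in males and -0.16 in females. Among the 9 genes, Gsr in females was the single value past a log2 difference of 0.5, a size that 3.95% of all genes well above background on both female arrays reached on the lower side. It was short of 0.5 under 5 of the 7 alternative settings, at -0.40 with quantile normalization, -0.43 with cyclic loess and by the authors' scaling, -0.46 with the 75th percentile over detected spots and -0.34 with the mean of its probes. With median centring Gsr was at -0.64 and Gclm, at -0.61, passed 0.5 too. In males none of the 9 was lower by 0.5, against 2.85% of all genes. None of the 9 was higher by 0.5, against 3.77% of all genes in males and 6.27% in females. None was past 0.5 in both sexes, where 0.581% of all genes were lower and 1.51% higher. A difference of 1, which is a 2-fold change, was reached by none of the 9 in either sex. Of all genes, 0.352% were higher and 0.507% lower by that much in males, and 0.661% and 0.433% in females.

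Slc7a11, the light chain of the cystine and glutamate exchanger that supplies cysteine for glutathione (chromosome 3), was not well above background in either male pool or in the female controls. Its processed signals there were 2.22, 2.05 and 2.43 intensity units. In the female CB-NP pool it was well above background at 13.4 units. Set against the lowest signal called well above background on the female control array, 10.2 units, this was 1.62-fold higher after scaling. The lowest signal so called on the female CB-NP array was 9.85 units. The scanner error of the Slc7a11 level there was 0.29 on the log2 scale, so 1.62-fold is not a firm minimum. Slc7a11 did not enter the test. Slc3a2, the heavy chain of the exchanger, was at 40.6 and 39.1 in the males and at 39.3 and 36.0 in the females (control first). It was chosen for mention after its values were known.

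In the main setting Txnrd1 and Srxn1 had female differences past the scanner error and male differences within it. Txnrd1, cytosolic thioredoxin reductase (chromosome 10), was at 14.5 and 13.4 in the males and at 14.9 and 12.4 in the females, with differences of -0.12 and -0.27. Srxn1, sulfiredoxin (chromosome 2), which restores over-oxidised peroxiredoxins, was at 8.27 and 7.94 in the males and at 8.88 and 7.57 in the females. Its differences were -0.06, which was 0.00 by the authors' scaling, and -0.23. For both genes the CB-NP pools lay below the controls in the main setting.

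Nqo1 and Hmox1 break down quinones and haem. Nqo1, a quinone reductase (chromosome 8) often used as a readout of Nrf2, was at 1.21 in the male control and 0.979 in the male CB-NP pool, and at 1.42 and 1.15 in the female pools. Its differences of -0.31 and -0.30 were nearly equal in the sexes, and the control pools of the sexes themselves differed by 0.23, female over male. Hmox1, inducible haem oxygenase (chromosome 8), was at 21.6 in both male pools and at 21.7 and 19.1 in the female control and CB-NP pools by its brighter probe. The male difference was 0.00, between -0.05 and 0.07 over the 8 settings tried, and the female -0.19. By this probe its pools were not separated by treatment in the main setting. Its dimmer probe was at 1.74 and 1.62 in the males and at 2.32 and 1.47 in the females, and its female difference of -0.66 was larger than that of the brighter probe. By the dimmer probe both CB-NP pools lay below both controls. With the mean of both probes Hmox1 was at -0.05 in males and -0.42 in females. In that setting and with normexp its CB-NP pools also lay below both controls.

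The metallothioneins, Mt1 and Mt2, lie on chromosome 8 with annotated starts 6471 bases apart. Mt1 was at 149.6 and 126 in the males and at 131 and 126 in the females, control first. Mt2 was at 135 and 118 in the males and at 131 and 122 in the females. The differences were -0.25 and -0.07 for Mt1 and -0.19 and -0.10 for Mt2. In males these values stayed below 0 under all 8 settings of scaling, background correction and probe choice. In females Mt1 was above 0 under 4 of them (quantile normalization, cyclic loess, the 75th percentile over detected spots and the authors' scaling, at most 0.06) and Mt2 under quantile normalization and cyclic loess, at most 0.02.

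The RefSeq promoter windows (assembly GRCm38.p6, from 250 bases before to 50 bases after the annotated start) are shown for both metallothioneins, because they are the pair for which MREs are best known, and for the glutamate-cysteine ligase subunit Gclm, because it was among the lowest of the group. The sequences run 5′ to 3′ on the plus strand. In Mt1 (chr8:94178839-94179138) and Mt2 (chr8:94172368-94172667) capitals mark matches to the MRE core on either strand, searched as TGCACNC or TGCGCNC. In Gclm (chr3:122245307-122245606) capitals mark the match to the ARE core, searched as TGACNNNGC on both strands.
Mt1: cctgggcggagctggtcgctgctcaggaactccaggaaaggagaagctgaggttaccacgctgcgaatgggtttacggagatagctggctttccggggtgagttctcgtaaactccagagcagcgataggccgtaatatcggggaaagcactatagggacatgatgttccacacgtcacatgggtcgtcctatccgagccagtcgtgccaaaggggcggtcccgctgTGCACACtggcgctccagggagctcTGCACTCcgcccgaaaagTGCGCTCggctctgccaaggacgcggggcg
Mt2: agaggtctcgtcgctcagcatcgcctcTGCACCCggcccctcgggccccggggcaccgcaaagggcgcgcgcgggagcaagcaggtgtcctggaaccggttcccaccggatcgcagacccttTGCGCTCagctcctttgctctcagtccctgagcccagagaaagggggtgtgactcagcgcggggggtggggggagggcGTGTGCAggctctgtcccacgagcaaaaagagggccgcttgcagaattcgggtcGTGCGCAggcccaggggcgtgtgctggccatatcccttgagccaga
Gclm: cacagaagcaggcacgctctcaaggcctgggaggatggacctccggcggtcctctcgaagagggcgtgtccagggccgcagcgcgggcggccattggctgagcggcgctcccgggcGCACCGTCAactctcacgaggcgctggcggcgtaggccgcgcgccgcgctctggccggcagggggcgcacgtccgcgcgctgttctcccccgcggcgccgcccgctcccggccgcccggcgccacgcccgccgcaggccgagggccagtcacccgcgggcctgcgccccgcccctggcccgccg

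Mt2 held 4 MRE core matches and Mt1 held 3, whereas 0.517% of all 32851 promoter windows held at least 4 and 1.97% at least 3. Gclm also held 3 MRE core matches. The ARE core was matched in the windows of Gclm, Srxn1 and Mt2 and in 1 of the 3 Txnrd1 windows, and in 12.4% of all windows. In Mt2 the ARE core match, TGACTCAGC, began 79 bases before the start and contained the AP-1 site TGACTCA, which 5.2% of all windows held. Srxn1 held 2 AP-1 sites, where 0.222% of all windows held at least 2, and its ARE core match as searched lay after the start. Its AP-1 site that began 45 bases before the start reads TGAGTCAGC with the letters that follow. The search for TGACNNNGC did not allow that form, so sites of this form were not counted in any window. The windows of Nqo1 and Slc7a11 held neither core. A window was given for 7 of the 10 genes, the annotated start sets where it lies, and a match describes letters and not binding.

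The 9 genes were next set against all genes well above background on all 4 arrays. In males the 9 ranged from -0.31 (Nqo1) to 0.00 (Hmox1) with a median of -0.22, and all 13936 genes had a median of -0.02. In females the 9 ranged from -0.53 (Gsr) to -0.07 (Mt1) with a median of -0.23, beside -0.05 for all genes. Below 0 were 8 of the 9 in males and 9 of 9 in females, whereas of the genes detected on both arrays of a sex 54.8% were below 0 in males and 56.7% in females. Below 0 in both sexes were 8 of the 9, against 39.4% of all genes. Both CB-NP pools lay below both control pools for these 8 genes, against 32.7% of all genes. These counts depended on the scaling, and so did the share of all genes. Below 0 in both sexes were 6 of 9 with quantile normalization (33.4% of all genes), with cyclic loess (32.7%) and by the authors' scaling (25.8%). They were 9 of 9 with normexp (37.7% of all genes) and with the mean of probes (39.0%). Bright genes in general lay slightly lower with CB-NP, and 6 of the 9 were in the brightest 2 of 10 equal groups of genes. The median of all genes in the brightest group, which held Mt1 and Mt2, was -0.08 in males and -0.11 in females. In the group below it, which held Gclc, Hmox1, Txnrd1 and Gsr, it was -0.07 and -0.12. The part of this shift in the differences of the 9 genes was not tested.

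**Figure D2:**
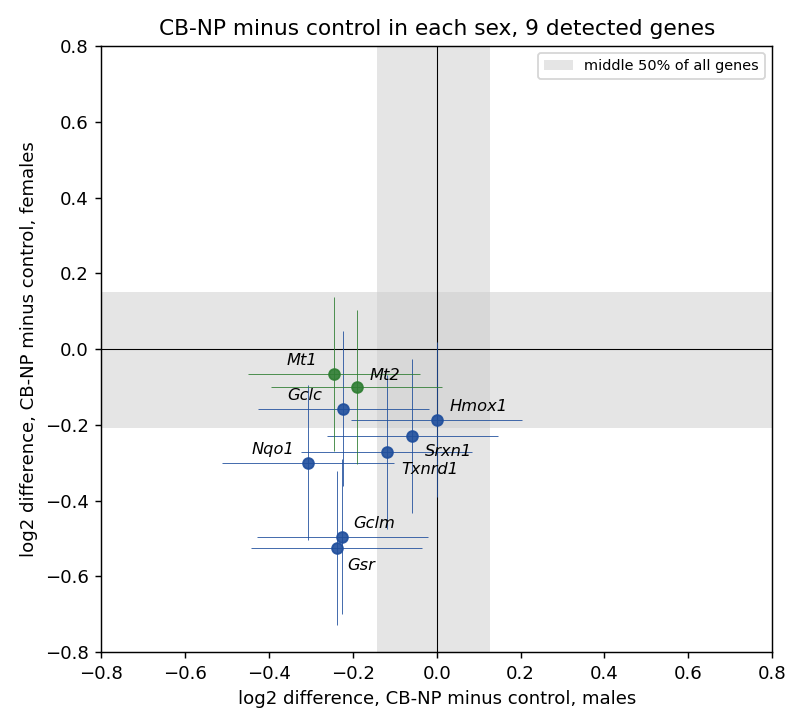
Log2 difference of CB-NP minus control in males (x axis) and females (y axis) for the 9 genes well above background on all 4 arrays, blue for antioxidant genes and green for metallothioneins; lines are the scanner error and grey bands hold the middle 50% of all genes. Gsr and Gclm lie lowest in females at -0.53 and -0.50, and Nqo1 lowest in males at -0.31.

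Ordered by size, neighbouring genes were closer to each other than the scanner error of 0.20 in either sex, so the order of neighbours was not resolved. The ends of the order lay further apart, from -0.53 (Gsr) to -0.07 (Mt1) in females and from -0.31 (Nqo1) to 0.00 (Hmox1) in males. Against all genes, 3.40% had a lower female value than Gsr and 4.03% a lower one than Gclm. In males, 7.46% of genes had a lower value than Nqo1. Hmox1 was in the middle of the male values, with 54.7% of genes lower.

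A limma model with treatment and sex, which has 1 residual degree of freedom, asked whether the genes differed with CB-NP over both sexes. Gsr had a fitted log2 difference of -0.38 (SE 0.12, adjusted p 0.356), Gclm of -0.36 (SE 0.11, adjusted p 0.358) and Nqo1 of -0.30 (SE 0.09, adjusted p 0.352), lower in 2 of 2 pairs in each case. The unadjusted p of these 3 genes was 0.0392, 0.0428 and 0.0335, and 5.96% of the 14503 genes tested were lower and 7.81% higher at an unadjusted p under 0.05. The other 6 genes lay between -0.20 (Txnrd1) and -0.09 (Hmox1), with adjusted p from 0.410 to 0.653. The model called 0.069% of all genes lower and 0.0138% higher at an adjusted p under 0.05, and none of the 9 in either direction. A p above the threshold does not show that the pools were alike. In the main setting the 95% intervals of the 9 genes reached down to -0.73 (Gsr) and up to 0.21 (Hmox1). The largest increase inside any of them was thus 1.16-fold in that setting. It is no ceiling, because the SE of Hmox1 was 0.10 there and 0.22 with median centring. The 1 residual degree of freedom is how far the male and female differences of a gene disagree. The SE, p and intervals rest on that and on variance borrowed across genes. They hold no spread between repeat pools, animals or litters.

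Sexes were compared next. Between the control pools the 9 genes differed by -0.19 (Mt1) to 0.23 (Nqo1), female minus male, with a median of 0.04, and none reached 0.5, against 2.33% of all genes on the higher and 3.9% on the lower side. Between the CB-NP pools they differed by -0.23 (Gsr) to 0.24 (Nqo1). In the same limma model no gene of the 9 differed between the sexes at an adjusted p under 0.05, with adjusted p from 0.895 to 1.00 and none under 0.05 unadjusted. Of all genes it called 0.0069% higher and 0.0207% lower in females. Whether the CB-NP difference itself differs between the sexes could not be tested with 1 pool per group. The female differences of Gsr and Gclm were the larger ones by point value.

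**Figure D3:**
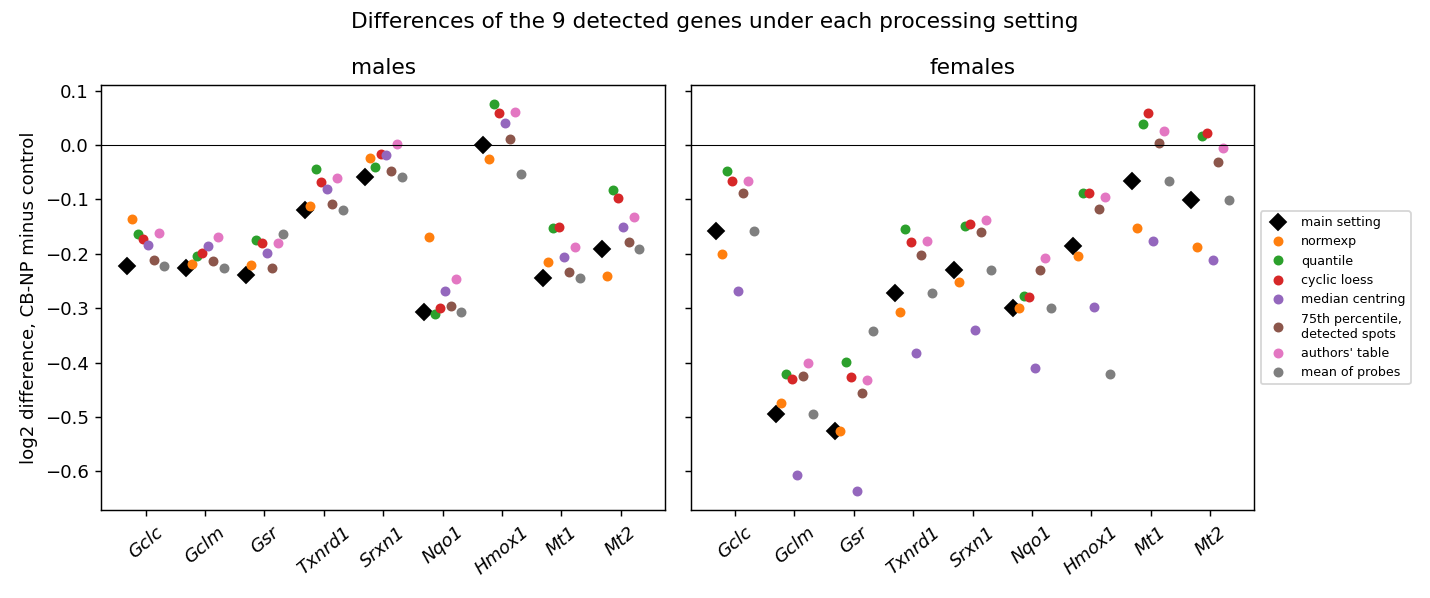
Log2 difference of CB-NP minus control (y axis) for each of the 9 genes (x axis) in males (left) and females (right) under the main setting (black diamonds) and 7 alternatives (coloured points). Gclm, Gsr, Gclc, Txnrd1 and Nqo1 stay below 0 under all 8, whereas Hmox1 and Srxn1 in males and Mt1 and Mt2 in females lie on either side of 0.

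Regulators of the pathway went both ways in males and were mostly lower in females. Each of the 12 listed genes was detected (well above background) on every array, with medians of -0.02 in males and -0.12 in females. Below 0 were 6 of 12 in males (54.8% of all genes) and 10 of 12 in females (56.7%). In both sexes 6 were below 0 (39.4% of all genes) and 2 above, and none passed the limma test. For this and the following lists, the share of all genes above 0 in both sexes is not given. Nfe2l2, which encodes Nrf2, was at 6.69 and 8.03 in the males and at 8.52 and 7.54 in the females, a difference of 0.26 in males and -0.18 in females. Keap1 was at -0.06 and -0.05. Bach2, a repressor of ARE genes best known in B cells, was at 0.40 and 0.49, with an adjusted p of 0.310 in limma. Cul3, the scaffold of the ligase that marks Nrf2 for degradation, was at -0.32 and -0.29 (adjusted p 0.352 in limma), and Sqstm1, which binds Keap1, at -0.18 and -0.34. Nfe2l2 and Keap1 were chosen for mention after their values were known.

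Other Nrf2 targets and glutathione genes went both ways. Of 38 listed, 34 were well above background on all arrays, with medians of -0.02 and -0.07. Of these, 15 were below 0 in both sexes, near the share of all genes (39.4%), and 8 above. None passed the limma test in either direction. Ephx1, an epoxide hydrolase, was at 3.19 and 4.32 in the males and at 3.21 and 4.95 in the females, with differences of 0.44 and 0.62 (adjusted p 0.310 in limma). The Gstm5 probe, a glutathione transferase of a multigene family whose members may share signal, was at -0.31 and -0.51. Chac1, which degrades glutathione, was at 1.27 in males and 0.20 in females. Gpx1, the brightest gene of the list and a glutathione peroxidase, was at -0.03 and -0.08.

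Peroxiredoxin, thioredoxin, catalase and superoxide dismutase genes had medians of -0.08 in males and -0.15 in females. Below 0 in both sexes were 11 of 18 (39.4% of all genes), and 3 were above. Sod1, cytosolic superoxide dismutase, was at 205 and 180 in the males and at 194 and 167 in the females, with differences of -0.19 and -0.22. Prdx5, a peroxiredoxin, was at -0.10 and -0.61. None of the 18 passed the limma test.

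Genes that act next to Hmox1 and the metallothioneins differed in both directions. Among 9 detected haem and iron genes, the medians were -0.09 and -0.17, with 4 below 0 in both sexes (39.4% of all genes) and 2 above. Blvrb and Blvra, the biliverdin reductases that act after haem oxygenase, were at -0.28 and -0.35 and at -0.22 and -0.28. Ftl1, ferritin light chain, was at -0.09 and 0.01. The 7 metal-response genes had medians of -0.11 and -0.17, with 4 below 0 in both sexes (39.4% of all genes) and none above. Mtf1 itself was at 0.16 and -0.17. Mt4, a further metallothionein, was at -0.35 and -0.46, and Slc30a10, a metal exporter, at -0.51 and -0.15. Mt3 was at -0.17 and 0.35 and Slc39a10, a zinc importer, at 0.10 and -0.47, both chosen for mention after their values were known. Slc30a1, a zinc exporter induced by Mtf1, was at -0.11 and -0.40. Glucocorticoids also induce metallothioneins, and the 8 glucocorticoid-response genes had medians of -0.09 and 0.09, with Tsc22d3 at 0.29 and 0.17. No gene of these 3 lists passed the limma test.

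**Figure D4:**
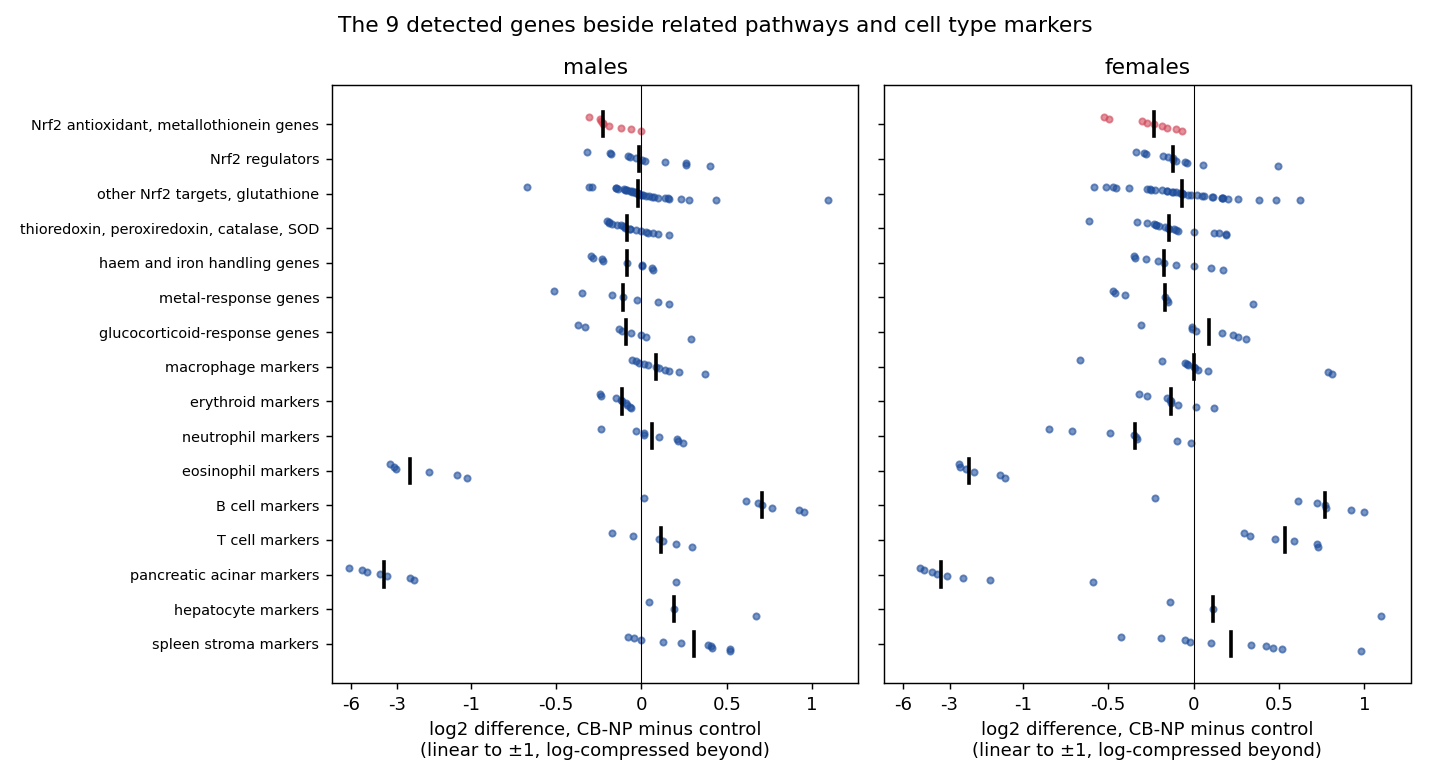
Log2 difference of CB-NP minus control (x axis, linear between -1 and 1 and compressed beyond) for genes well above background on all 4 arrays, by list (y axis), in males (left) and females (right); red points are the 9 genes, blue points the other lists and black bars the list medians. The 9 genes lie between -0.53 and 0.00, while the medians of pancreatic acinar and eosinophil markers lie far lower and that of B cell markers higher.

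The pools differed in cell type markers, and their part in the differences of the 9 genes was not tested. In bulk RNA, fewer cells of a type and less RNA per cell cannot be told apart. All 10 spleen stroma markers with a probe were well above background on every array. Pancreatic acinar markers were detected on all arrays for 8 of 12, with Pnlip and Ptf1a detected on none. The summed level of the 8 was 16.9 in the male control and 1.89 in the male CB-NP pool, and 12.2 and 1.94 in the female pools. Amy2a5 and Prss1 were well above background in the 2 control pools only and so are not in the sum. Amy2a5 was at 3.13 in the male and 3.21 in the female control, and Prss1 at 0.221 and 0.347. Their signals in the CB-NP pools were background values. They entered the limma fit only through the controls, so its p-values for them are not given. Amy2a5 and Prss1 were chosen for mention after their values were known. The 6 eosinophil markers summed to 31.8 and 8.89 in the males and to 62.3 and 17.2 in the females, and the 7 B cell markers to 57.3 and 96.6 and to 54.7 and 90.1. The summed level of the 9 genes was 371 and 324 in the males and 351 and 320 in the females. Most of that sum was Mt1 and Mt2 in every pool, so it says little about the other genes.

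The 9 erythroid markers had medians of -0.11 in males and -0.13 in females, with 7 of 9 below 0 in both sexes (39.4% of all genes). They summed to 972 and 868 and to 917 and 909. The 11 detected macrophage markers of 12 had medians of 0.09 and 0.00, with 1 below 0 in both sexes (39.4% of all genes) and 4 above. The macrophage markers summed to 164 and 175 and to 151 and 173. They differed among themselves in females, where Cd5l was at 0.79, Marco at 0.81 and C1qb at -0.66, beside 0.09, -0.03 and -0.05 in males. The 8 neutrophil markers had medians of 0.06 and -0.34, and the 6 T cell markers of 0.12 and 0.53. Hepatocyte markers, checked because liver is rich in metallothionein, were detected on all arrays for 3 of 8 (medians 0.19 and 0.11), and Alb, Apoa1, Ttr and Apoh were well above background on none. The 3 detected, Serpina1a, Ahsg and Trf, summed to between 25.8 and 30.4. Serpina1a was at 0.67 in males and 1.28 in females, Ahsg at 0.19 and 0.11, and Trf at 0.05 and -0.14.

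The genes with profiles most like those of Nqo1 and Gsr, which had the widest ranges over the 4 pools (0.54 and 0.53), were found by the root mean square distance between profiles centred on their own mean. Nearest to Nqo1 were Retsat, Rpusd1 and Samd14, at distances of 0.017 to 0.018, and 554 genes lay within 0.1. Nearest to Gsr were Ruvbl2, Mgat5b and Slc19a1, at 0.0077 to 0.012, and 980 genes lay within 0.1. With 4 pools such likeness is common and describes these arrays only.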

How the data were processed

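Spleen RNA was measured on 4 single-colour (Cy3) arrays, each hybridised with the pool of 1 group. The authors read the arrays, per the file headers, with Agilent Feature Extraction 10.10.1.1 and deposited the processed signal, a linear intensity, from which background had been subtracted with spatial detrending, without normalization across arrays. Other deposited values are the intensity of spot and local background, the error of the processed signal and flags. The value table that the authors also deposited is this intensity times 1 constant per array.

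Levels were log2 processed signals minus the 75th percentile that the array showed over its 59305 spots other than controls. Outlier-flagged spots were left out, and spots of a probe were averaged. Probes were named by RefSeq accession (GRCm38.p6 names), which matched 26762 of 55681 probes to 20284 genes. The brightest probe stood for a gene. The files give a median-pixel and no mean-pixel signal, so the median was used for normexp. limma 3.58.1 in R 4.3.3 fitted treatment and sex to the 14503 genes detected on 2 or more arrays (flagged well above background). Its p-values were adjusted by Benjamini-Hochberg, and it was tested on simulated data. Differences within a sex have no test. Python 3.11.15 and pandas 2.3.3 did the rest.

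All 10 genes are named with all probes. From the context lists, genes could be named if they were among the 3 with the largest mean difference or the 2 brightest. The 10 genes and the lists were chosen with earlier results of these data known. The alternatives were 7 other settings of scaling, background or probe choice, and for the fit 4 further settings of filter, variance prior or covariates. The 4 listed genes without a matched probe (Ahsp, Ly6g, Trac and Ccl21a) were left out. The number of arrays limits the precision.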

Additional observations from a re-analysis of the deposited data

How the results depend on the processing

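No paired analysis was possible because the labels give no replicate numbers to pair by; the treatment fit does compare the pools within each sex, through its sex term. No array could be left out of that fit, which has 1 residual degree of freedom. Over the 7 alternatives the median of the 9 genes stayed between -0.21 and -0.15 in males and between -0.34 and -0.14 in females, and no gene of the 9 passed limma under any of the 11 alternatives of the treatment fit (lowest adjusted p 0.055, Gsr with an intensity trend; 0.067 with normexp). Of 252 values of single genes under the alternatives, 251 were counted as unchanged. Within a sex this meant a move of less than the scanner error. In the fit it meant staying above the threshold, with the direction kept or a move of less than the SE. The exception was Hmox1 in females, at -0.42 with the mean of probes. For genes with 1 probe, the mean of probes repeated the main differences. The alternatives of filter, variance prior and covariates repeated the main fitted difference of all 9 genes, so only SE and p could move. No gene of the 9 passed the main fit. A fitted value above the threshold with its direction kept therefore counted as unchanged, whatever its size. The count of 251 was thus partly fixed beforehand and says little about stability. The scanner error of 0.20 was larger than several of the differences, so values that crossed 0 also counted as unchanged. Mt1 in females did so, at -0.07 in the main setting and 0.06 with cyclic loess. Median centring moved the female median of all genes from -0.05 to -0.16, so female values are relative to the centring. With the authors' scaling, 5 of 9 genes, not 8, had both CB-NP pools below both controls, and the share of all genes was 19.9%, not 32.7%.

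The number of all genes called depended strongly on the setting. Called higher and lower with CB-NP were 2 and 10 genes in the main setting (1132 and 864 at an unadjusted p under 0.05), 359 and 253 with normexp, 171 and 173 with median centring and 227 and 153 with an intensity trend. The counts were 0 and 3 with quantile normalization (1181 and 795 unadjusted) and with cyclic loess (1217 and 751). They were 0 and 5 with the 75th percentile over detected spots (1377 and 660), 0 and 2 with the authors' scaling (1687 and 460) and 1 and 7 with the mean of probes. They were 0 and 0 for genes detected on all arrays (1162 and 951) and without a detection filter (801 and 562), and 2 and 7 without sex. For female minus male they were 1 and 3 in the main setting and with quantile normalization, 38 and 39 with normexp and 97 and 84 with median centring. The cause of these shifts was not tested. Dim signals, as for Slc7a11, give bounds only, and these carry the scanner error of the dim spot.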
